A study of Mus musculus with 20 samples.

Results

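The epidermal differentiation complex is a cluster of genes on mouse chromosome 3 that holds most structural proteins of the cornified envelope. The genes described here were chosen by name as the loricrin gene Lor, the involucrin gene Ivl, every gene of the late cornified envelope (Lce) and small proline-rich (Sprr) families, the fused S100-type genes Flg, Flg2, Hrnr, Rptn, Tchh, Tchhl1 and Crnn, and the small genes Crct1 and Lelp1. They number 49 of the 53380 genes in the table. All 49 lie between chr3:92080271-93471980 of mm10, a stretch of 1391.709 kb that runs from Lor to Tchhl1. Of the 49, 33 reached a normalised read count of 10 or more in 3 or more of the 20 libraries, and these 33 were among the 17204 genes tested. By family they were Lor and Ivl (2 of 2 tested), Lce1 (14 of 14), the other Lce genes (2 of 7), Sprr2 (4 of 13), the other Sprr genes (3 of 4), the fused S100 type (7 of 7) and the small genes (1 of 2). A gene that passed because it was high in 1 population had to differ, so counts over the 33 genes are descriptions.

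A basal keratinocyte that leaves the basement membrane first makes suprabasal keratins and then, in the granular layer, the proteins of the cornified envelope. Involucrin is laid down early under the plasma membrane, and loricrin, the Sprr proteins and the Lce proteins are cross-linked to it by transglutaminases. Filaggrin, cut from the product of Flg, bundles keratin filaments and is later broken down to natural moisturizing factors. Basal stem and progenitor cells are known for low levels of these genes.

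Cells were sorted from mouse dorsal epidermis into 5 populations. There were 4 libraries of α6+Sca1+Thy1hi keratinocytes (Thy1hi), 4 of α6+Sca1+Thy1- keratinocytes (Thy1-), 4 of hair follicle stem cells sorted as α6+Sca1-CD34+ (HFSCs), 5 of α6-Sca1lowThy1+ dendritic epidermal T cells (DETCs) and 3 of Thy1+YFP+ cells (YFP+). The GEO labels give every library the genotype Thy1.2CreERT2-Rosa26-EYFP and no treatment, while the study describes wild-type adult mice for all but the YFP+ cells. In the study's lineage tracing mice, tamoxifen-inducible Cre is driven by the Thy1 promoter and switches on an EYFP reporter at the Rosa26 locus, so YFP marks cells in which that promoter was active at induction and their offspring. The labels call the YFP+ cells ScaI- and give ages of 8 to 11 weeks for HFSCs, 12 to 16 for DETCs, 17 to 19 for YFP+, 20 to 23 for Thy1hi and 24 to 27 for Thy1-, whereas the series gives 8 weeks for all mice. As labelled, age and population cannot be told apart. Libraries were made in 2 batches with an mRNA kit or a stranded total RNA kit, and no label places a library in a batch, so batch and population cannot be told apart. The series speaks of biological replicates, and the study counts mice for each population in one place and speaks of pooled mice in another. Its numbers of mice for DETCs and HFSCs are not the numbers of libraries here. No label says which mice gave which library, so p-values measure the spread between these libraries only.

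Between 7781256 and 12982392 reads fell on genes in each library, and the 49 genes took 0.0304% to 0.35% of the reads outside the ribosomal transcript Rn45s. Defining markers were checked against the gates. The summed level of 7 basal keratinocyte markers (Krt5, Krt14, Krt15, Col17a1, Itga6, Itgb1 and Itgb4) was 186744 to 258025 in Thy1hi, 87702 to 154617 in Thy1-, 160452 to 269717 in YFP+, 71882 to 166417 in HFSCs and 13347 to 58246 in DETCs, so the T cell gate also held keratinocyte message. The summed level of 8 T cell markers was 19502 to 40467 in DETCs and 250.4 to 464 in Thy1hi, and that of 7 HFSC markers was 7049 to 10942 in HFSCs and 1155 to 1806 in Thy1hi. HFSC replicate 4 stood apart. It had 13.1% of its reads on Rn45s, a summed Langerhans cell marker level of 73.6 against 2391 to 4909 in the other HFSC libraries, and values under 10 for 25 of the 33 genes. The main HFSC results are therefore given with and without it. Levels are normalised read counts throughout. In these bulk samples, fewer late differentiating cells in a gate and less message per cell cannot be told apart.

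Promoter sequences show what these genes share beyond their place. RefSeq windows (GRCm38.p6) of 300 bases, from 250 before to 50 after the start, matched 44 of the 49 genes. The letters TATAAA, read in the sense direction between 45 and 15 bases before the start, were present in 17 of 44 windows, against 2.14% of all 32851 promoters. The shorter letters ATAAA, chosen after the sequences were seen, stood there in 35 of 44, against 4.9% of all. In the Lce1 family 2 of 13 had TATAAA there and 12 of 13 had ATAAA. The AP-1 letters TGANTCA, which read the same on both strands, were found anywhere in 16 of 44 (36.4%), against 7.81% of all. The Klf letters CACCC were in 52.3% against 57.5%, the C/EBP letters TTGCNNAA in 11.4% against 10.8%, and the Grainyhead-like letters AACNGGTT in 2.27% against 2.09%, both strands counted. Many of these windows come from duplicated genes, and a match is not a binding site. The windows below run 5′ to 3′ from 100 bases before to 20 after the start. They are shown for Lor, Ivl, Sprr1a, Sprr2h and part of the Lce1 family, all of which have ATAAA in that place. The windows of Flg, Flg2, Sprr2a3, Sprr4, Tchh and Lce6a, whose values are given below, lack ATAAA there and are not shown. Capitals mark TGANTCA and any base followed by ATAAA between 45 and 15 bases before the start.
Lor, chr3:92083123-92083242, minus strand: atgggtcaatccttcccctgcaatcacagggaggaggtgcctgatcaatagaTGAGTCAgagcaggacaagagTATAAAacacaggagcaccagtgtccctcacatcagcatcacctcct
Ivl, chr3:92573716-92573835, minus strand: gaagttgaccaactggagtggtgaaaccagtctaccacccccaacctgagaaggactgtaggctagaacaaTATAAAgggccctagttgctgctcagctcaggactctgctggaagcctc
Sprr1a, chr3:92485862-92485981, minus strand: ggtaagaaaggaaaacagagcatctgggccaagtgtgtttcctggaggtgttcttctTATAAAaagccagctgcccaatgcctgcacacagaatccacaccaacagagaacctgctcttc
Sprr2h, chr3:92385585-92385704, plus strand: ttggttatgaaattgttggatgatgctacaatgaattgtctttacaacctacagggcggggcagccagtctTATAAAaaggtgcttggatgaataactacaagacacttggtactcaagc
Lce1m, chr3:93019042-93019161, minus strand: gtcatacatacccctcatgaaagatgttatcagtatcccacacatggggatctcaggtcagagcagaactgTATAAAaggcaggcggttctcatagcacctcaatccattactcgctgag
Lce1d, chr3:92687191-92687310, minus strand: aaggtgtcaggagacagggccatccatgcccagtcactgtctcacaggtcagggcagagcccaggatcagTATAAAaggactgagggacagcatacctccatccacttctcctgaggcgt
Lce1c, chr3:92679147-92679266, plus strand: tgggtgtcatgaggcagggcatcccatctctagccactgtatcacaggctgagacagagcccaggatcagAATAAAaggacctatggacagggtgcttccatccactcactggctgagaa
Lce1g, chr3:92752319-92752438, minus strand: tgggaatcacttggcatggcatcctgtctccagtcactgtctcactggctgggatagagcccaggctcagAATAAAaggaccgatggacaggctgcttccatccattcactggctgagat
Lce1h, chr3:92765046-92765165, minus strand: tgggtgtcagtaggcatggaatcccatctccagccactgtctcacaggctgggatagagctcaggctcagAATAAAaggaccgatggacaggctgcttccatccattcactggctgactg

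The Lor, Ivl, Sprr1a, Sprr2h, Lce1m and Lce1d windows carry TATAAA, and the Lce1c, Lce1g and Lce1h windows carry AATAAA in that place. Lce1g and Lce1h were identical at 89.2% of 120 positions without gaps, and Lce1c and Lce1h at 86.7%. Over the 78 pairs of Lce1 windows the identity ran from 15.8% to 89.2%. Lce1m, the highest Lce1 gene in these libraries, shared 15.8% with Lce1k, which was the lowest pair. The transcripts themselves can mostly be told apart. Of the stretches of 100 bases in a transcript, at most 4.9% were shared with another member for any Lce1 gene and none for Lor, Ivl, Sprr1a, Sprr1b, Sprr2h, Lce1m, Crct1 or the fused S100 type. Sprr2a1, Sprr2a2 and Sprr2a3 shared 92.5%, 92.8% and 36.3%, and Lce3c to Lce3f shared 24.2% to 43.0%, so reads of these genes may be split or lost and their values are uncertain.

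**Figure D1:**
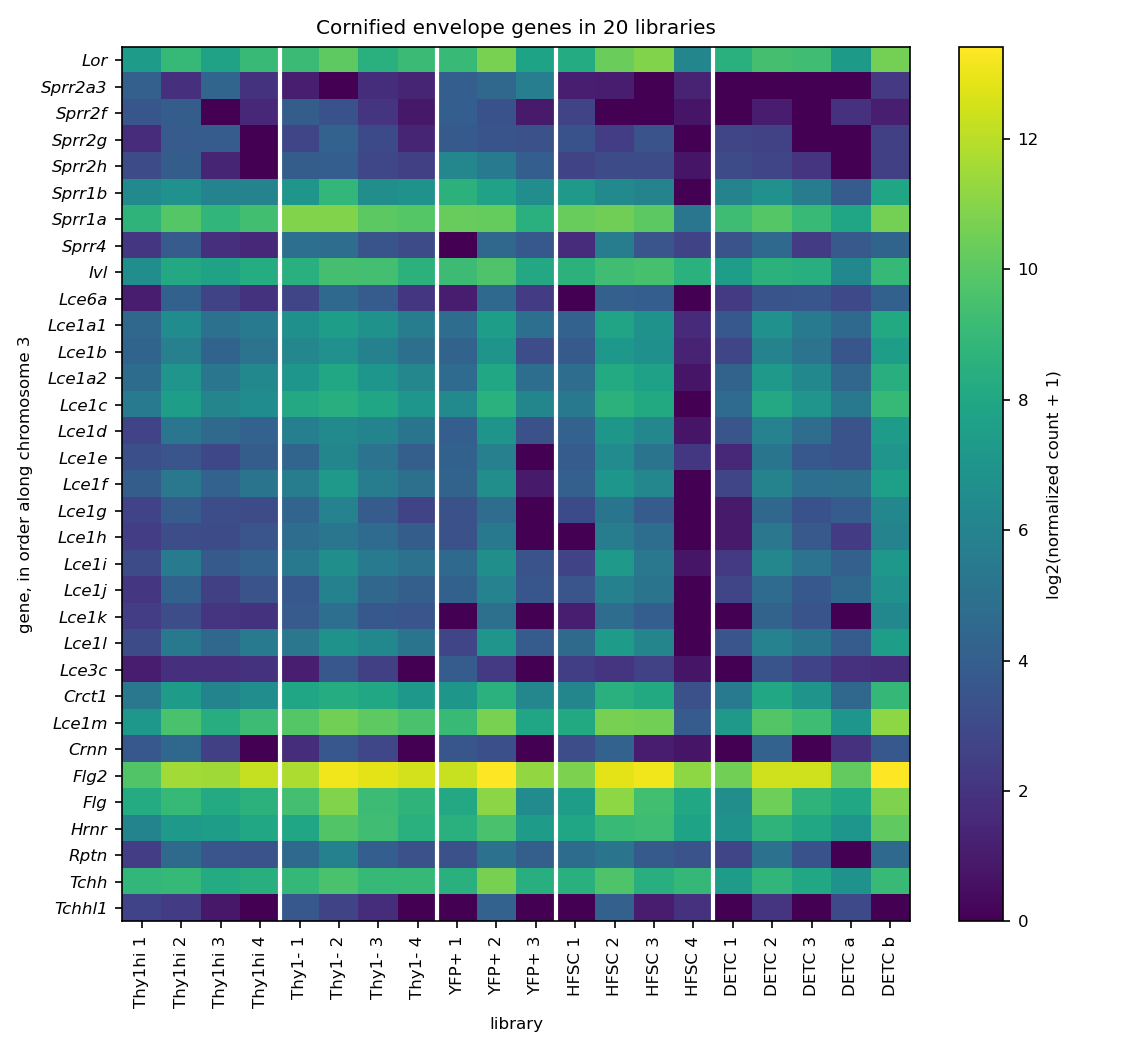
Levels of the 33 tested genes (rows, in order along chromosome 3) in the 20 libraries (columns, grouped by population), as log2(normalised count + 1) on the colour scale. Flg2 is the brightest row, and the dark block from Lce1a1 to Lce1l in HFSC replicate 4 holds values of at most 3.5.

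Flg2, whose product is a filaggrin relative of the granular layer, gave the most reads of any member. Levels of different genes were compared per kb of the longest annotated coding transcript. On that scale, averaged over the 20 libraries, Sprr1a was first at 1158.5 per kb, followed by Lce1m at 915, Lor at 376, Lce1c at 249, Crct1 at 249 and Ivl at 218. Flg and Flg2 are left out of this order because their longest annotated coding transcripts, 1488 and 7011 bases, are much shorter than the exons annotated for the genes (18829 and 20803 bases). In Thy1hi cells the level of Sprr1a was 762 ± 286 per kb (SD, n = 4) and that of Lce1m 512 ± 307. In Thy1- cells they were 1784 ± 646 and 1215 ± 370. The SDs are between libraries, and both genes were measured in the same libraries. Sprr1a was the higher per kb in each Thy1hi and Thy1- library, and the gap was not tested. The order below Lor differed between populations. Ivl was under Lce1c and Crct1 in Thy1hi, Thy1- and DETCs and above them in YFP+ and HFSCs. The gaps were less than the SD of Lce1c and of Crct1 in each. In HFSCs the order came from replicate 4, with normalised counts of 376 for Ivl, 0 for Lce1c and 9.11 for Crct1. Without that library Ivl was under both in HFSCs.

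The libraries of a population differed widely. The summed level of the 49 genes was 2926, 7674, 5323 and 8447 in Thy1hi replicates 1 to 4 and 9964, 20087, 13713 and 10429 in Thy1-. Every Thy1- library was above every Thy1hi library. In YFP+ replicates 1 to 3 the sum was 9769.7, 23199 and 4601, and in HFSC replicates 1 to 4 it was 5215, 18632, 17112 and 3763. The DETC libraries gave 3433, 12328, 9235, 2548 and 23198 for replicates 1 to 3 and for the libraries a and b. The column numbers of a and b match no DETC replicate number in the labels. Each of these 3 populations overlapped both Thy1hi and Thy1- cells. The library numbered 2 held the highest value of its population for 22 of the 33 genes in Thy1hi, 29 in Thy1-, 25 in YFP+ and 24 in HFSCs, and DETC library b for 25. Flg2 made up 30.3% to 59.6% of these sums, and without it the sum was 2039 to 4696 in Thy1hi and 4713 to 11271 in Thy1-.

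**Figure D2:**
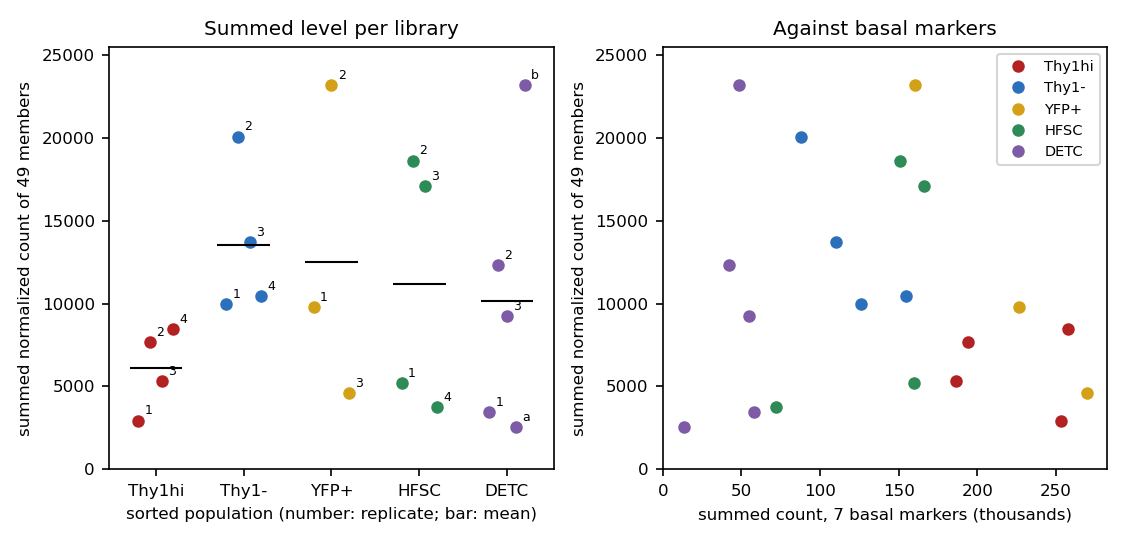
Left, the summed normalised count of the 49 genes in each library (points, labelled by replicate, with the mean as a bar); right, the same sum against the summed count of 7 basal keratinocyte markers, in units of 1000. Thy1hi libraries sit at 2926 to 8447 and Thy1- libraries at 9964 to 20087, and DETC library b reaches 23198 at a basal marker sum of 48386.

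The first comparison asked how Thy1hi keratinocytes, the candidate stem cells of the study, differ from Thy1- basal keratinocytes. Lor, Ivl, Flg, Flg2, Hrnr, Sprr1a and 9 of 14 Lce1 genes fell in Thy1hi cells, and Sprr2a3 was the 1 member that rose. No label pairs the libraries beyond their number. These calls come from a limma fit blocked by replicate number, used because libraries of the same number deviated together in these data. In it, 18 of the 33 genes fell and 1 rose, where 3.19% and 3.42% of all tested genes did. The fit without the block, over all 20 libraries, called 0 of the 33, where 0.337% of all genes passed. Its unadjusted p was under 0.05 for 2 lower members and 1 higher member, against 3.58% and 3.64% of all genes, and edgeR and DESeq2 without the block also called 0. In log2 means, 31 of the 33 were lower against 52.1% of all genes, and the median difference was -1.23 against -0.02. In 21 of the 33 the Thy1hi library was below its Thy1- partner in all 4 pairs, against 13.5% of all genes. Of the 16 members with a mean of at least 50 over all libraries, 16 were lower and 12 of them fell in the blocked fit.

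Lor encodes loricrin, the main protein of the finished envelope by mass. It measured 166, 501, 211 and 547 in Thy1hi replicates 1 to 4 and 559, 1074, 365 and 566 in Thy1-. The groups overlapped, and each Thy1hi library lay below its partner. The difference was -0.92 on the log2 scale, with an adjusted p of 0.999 in the limma fit without the block (SE 0.83) and 0.0313 with it (SE 0.22). Ivl encodes involucrin, the early scaffold of the envelope. It measured 94.9, 277, 208 and 312 in Thy1hi and 364, 698, 675 and 394 in Thy1-. All Thy1hi libraries were below all Thy1- libraries. The log2 difference was -1.32, with a limma adjusted p of 0.441 (SE 0.49) without the block and 0.00585 (SE 0.22) with it. Not overlapping in this direction was found for 6 members (Ivl, Lce1e, Lce1h, Lce1k, Lce1m and Sprr1a), and for 3.17% of all genes.

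The Lce1 genes encode late proteins rich in cysteine that are cross-linked to the envelope. All 14 tested genes were lower in Thy1hi cells, from -1.67 for Lce1d to -1.04 for Lce1g with a median of -1.45. In the blocked fit 9 of the 14 fell. Without pair 1 only Lce1c, Lce1d and Lce1m of the family were called, without pair 2 only Lce1c, and without pair 3 no Lce1 gene. Without pair 4 all but Lce1g and Lce1k were called. Lce1m measured 142, 748, 324 and 576 in Thy1hi replicates 1 to 4 and 923, 1505, 1073 and 748 in Thy1-. The groups touched without overlapping, since the highest Thy1hi library and the lowest Thy1- library differed by under 1 count. The log2 difference was -1.45, with a limma adjusted p of 0.969 without the block and 0.0144 with it. Lce1c measured 47.5, 173, 67.5 and 92.2 in Thy1hi and 270.0, 356, 245 and 132 in Thy1-, and replicate 2 of Thy1hi exceeded replicate 4 of Thy1-. Its log2 difference was -1.47, with a limma adjusted p of 0.0103 with the block. Lce1h, whose window is printed above beside that of Lce1c, measured 4.42, 7.90, 7.32 and 10.7 in Thy1hi and 26.8, 37.0, 24.4 and 14.8 in Thy1-. The groups did not overlap, and the log2 difference was -1.62 (blocked adjusted p 0.0363, limma). Lce1d, with TATAAA in place of AATAAA, measured 5.52, 36.9, 23.6 and 17.5 in Thy1hi and 53.5, 84.5, 66.3 and 36.1 in Thy1-. The groups overlapped by 1 library each, and the difference was -1.67 (blocked adjusted p 0.0193, limma).

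The other Lce genes were scarce. Lce6a reached 1.10, 17.1, 5.69 and 2.91 in Thy1hi and 6.08, 23.1, 14.2 and 3.28 in Thy1-, and its difference of -0.87 did not pass with the block (adjusted p 0.299, limma). Lce3c, one of the Lce3 genes known from barrier repair, measured 1.10, 2.63, 2.44 and 2.91 in Thy1hi and 1.22, 11.6, 4.73 and 0 in Thy1-. Its difference was -0.16 (blocked adjusted p 0.92, limma), and its sign changed with the settings. Its values come from few reads, and it shares sequence with the other Lce3 genes except Lce3a. Lce3a, Lce3b, Lce3d, Lce3e and Lce3f stayed at 4.63 or below in every library and were not tested.

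Sprr proteins are short cross-bridges between larger envelope proteins. Sprr1a, the highest of the members ordered per kb, measured 426, 921, 448 and 661 in Thy1hi replicates 1 to 4 and 1885, 1892, 1032 and 944 in Thy1-. The groups did not overlap. The log2 difference was -1.22, with a limma adjusted p of 0.913 (SE 0.82) without the block and 0.00627 (SE 0.21) with it. Sprr1b measured 81.7, 108, 62.6 and 63.1 in Thy1hi and 130.1, 462, 97.8 and 115 in Thy1-, where replicate 2 stood far above the others. The difference was -1.06 (blocked adjusted p 0.025, limma). Sprr4 measured 3.31, 13.2, 2.44 and 1.94 in Thy1hi and 29.2, 26.6, 10.2 and 7.38 in Thy1-. The groups overlapped through Thy1hi replicate 2. Its difference of -1.75 was the most negative of the 33 genes (blocked adjusted p 0.035, limma). The limma calls of Sprr1b and Sprr4 were lost whichever pair was left out.

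Of the 4 tested Sprr2 genes, 3 had a lower mean in Thy1hi cells and did not pass, and Sprr2a3 rose. Sprr2a3 measured 16.6, 2.63, 19.5 and 2.91 in Thy1hi replicates 1 to 4 and 1.22, 0, 2.37 and 1.64 in Thy1-. Every Thy1hi library was above every Thy1- library, as for 3.59% of all genes in that direction. On the log2(value + 1) scale the difference was 2.0, with a limma adjusted p of 0.379 without the block and 0.0472 with it. With a pair left out in turn, the blocked fit called Sprr2a3 only without pair 4 (adjusted p 0.0376, limma). In Thy1hi replicates 2 and 4 the lead over Thy1- was less than 3 counts, and the gene shares part of its sequence with Sprr2a1 and Sprr2a2. Summed over the 3 Sprr2a genes the level was 17.7, 2.63, 21.1 and 2.91 in Thy1hi and 1.22, 0, 3.16 and 1.64 in Thy1-, and here the groups overlapped. Sprr2h measured 7.73, 14.5, 1.63 and 0 in Thy1hi and 14.6, 15.0, 6.31 and 4.92 in Thy1-, a difference of -1.23 that did not pass with the block (adjusted p 0.185, limma). Sprr2f and Sprr2g did not pass either. Sprr2a3 reached 10 in only 5 libraries, Thy1hi replicates 1 and 3 and YFP+ replicates 1 to 3. It thus entered the tests through the populations where it is high, and its calls and gaps against Thy1- cells and HFSCs are partly fixed by that filter.

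Most fused S100-type genes encode large proteins of the granular layer and the hair follicle. Flg2 measured 886, 2978, 2901 and 4758 in Thy1hi replicates 1 to 4 and 3488, 8817, 7501 and 5717 in Thy1-. The groups overlapped, and each Thy1hi library lay below its partner. The log2 difference was -1.29, with a limma adjusted p of 0.762 without the block and 0.00666 with it. Flg, the profilaggrin gene, measured 306, 508, 291 and 390.0 in Thy1hi and 673, 1892, 592 and 427 in Thy1-. Its difference was -1.05 (blocked adjusted p 0.0191, limma). Hrnr, the hornerin gene, measured 66.2, 151, 183 and 261 in Thy1hi and 248, 865, 635 and 366 in Thy1-. The groups overlapped through replicate 4 of Thy1hi and replicate 1 of Thy1-, and its difference of -1.67 was the largest fall in this family (blocked adjusted p 0.00399, limma). Tchh encodes trichohyalin, a protein of the inner root sheath and the hair medulla. It measured 465, 511, 298 and 346 in Thy1hi and 479, 753, 498 and 502 in Thy1-, and its difference of -0.47, the smallest of the family, did not pass with the block (adjusted p 0.0566, limma). Rptn, Tchhl1 and Crnn also did not pass, and Crnn, at no more than 21.1 counts, was the other member with a higher mean in Thy1hi cells. Crct1, a small cysteine-rich gene between Lce3 and Lce1m, measured 39.7, 166, 65.0 and 94.1 in Thy1hi and 244, 314, 263 and 139 in Thy1-, a difference of -1.52 (blocked adjusted p 0.0122, limma).

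**Figure D3:**
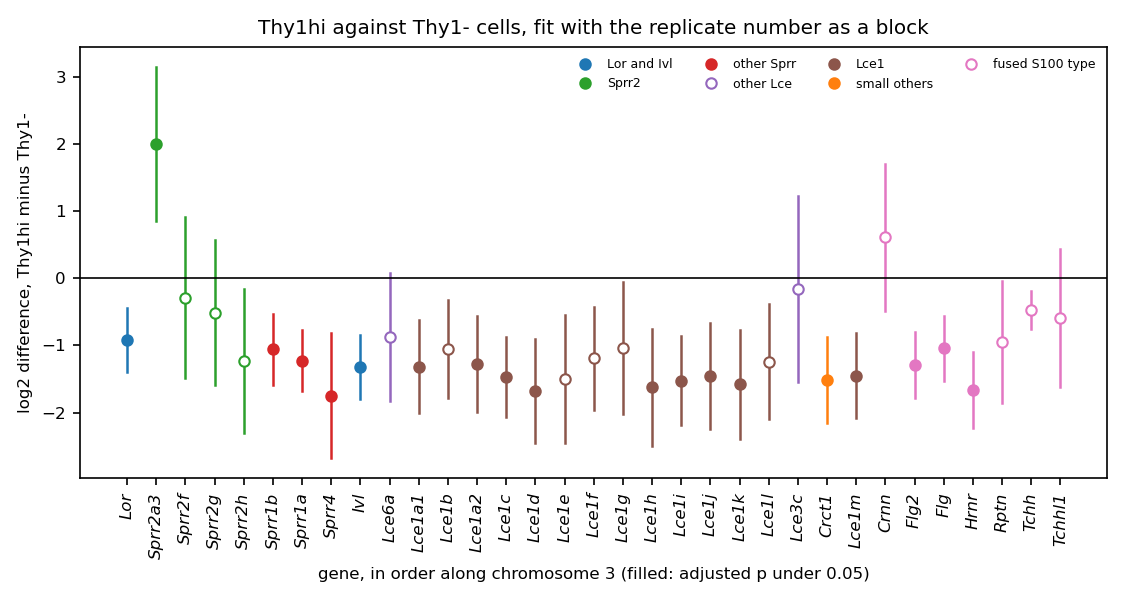
Log2 difference of Thy1hi minus Thy1- cells for the 33 tested genes in order along chromosome 3, from the blocked limma fit; bars are 95% confidence intervals, colours mark the families and filled points an adjusted p under 0.05. The 14 Lce1 genes lie between -1.67 and -1.04, and Sprr2a3 stands alone at 2.0.

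The count of blocked calls changed with the pair left out. Without pairs 1, 2, 3 and 4 in turn, 9, 5, 4 and 20 members were called, where 4.08%, 3.46%, 2.49% and 3.77% of all genes were, against 6.61% with all pairs, and Ivl, Hrnr and Sprr1a were called in each of these fits. Among these fits, Lor and Flg were called only without pair 4. Flg2 was not called without pair 2, nor Crct1 without pair 3. With the block in edgeR, 24 members were called (23 lower and 1 higher, against 8.75% of all genes), among them all 19 called by limma.

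Genes that make and fill the envelope outside the complex were lower in the same comparison. Of 16 tested cornification enzymes and scaffold genes, 12 fell and 1 rose in the blocked limma fit. As for the members, calls in this and the next paragraph were made with the block, and without it limma called 0 genes of these lists (lowest adjusted p 0.12, for Tgm3). Tgm1, the membrane-bound transglutaminase that cross-links the envelope, fell from 209 ± 80.0 in Thy1- to 109.9 ± 42.3 in Thy1hi (SD, n = 4 each; difference -0.92, blocked adjusted p 0.0133, limma). Dmkn and Scel fell by 0.84 and 0.97 on the log2 scale. Tgm3 was the exception and rose, from 58.1 ± 4.84 to 209.7 ± 78.4 (difference 1.76, blocked adjusted p 0.00169, limma). The envelope plakins Ppl and Evpl differed by -0.11 and -0.28 and did not pass. Of 5 suprabasal keratins 4 fell, including Krt10 by 1.42 and Krt1 by 0.98. Of 11 transcription factors of differentiation, Cebpa, Grhl3 and Prdm1 fell, Maf rose and 7 did not pass.

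Markers of other cells moved in the same samples. Of 7 basal keratinocyte markers 6 rose, with Krt5 and Krt14 each higher by 1.11 on the log2 scale. Of 5 Langerhans cell markers 4 fell, and their summed level was 523 to 1275 in Thy1hi against 962 to 1956 in Thy1-. Of 6 upper follicle and sebaceous markers 3 fell, of 7 HFSC markers 2 fell, of 8 T cell markers 1 rose, and none of 4 tested inner root sheath and 4 tested pigment cell markers passed (blocked limma fit, adjusted p). Their part in the differences of the envelope genes was not tested. The complex also holds 38 other genes, of which 8 were tested. Kprp, a keratinocyte proline-rich protein gene, 2310046K23Rik and 2310050C09Rik fell by 1.11, 1.33 and 1.32 in the blocked fit, and the other 5 did not pass. These 8 were taken for their place, after the values of the members were known.

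The comparisons with HFSCs asked where these keratinocytes stand beside the stem cells of the hair follicle bulge. They share the same HFSC libraries, and the counts differed with and without HFSC replicate 4. Thy1hi cells were lower than HFSCs for 16 of the 33 genes with all 4 HFSC libraries, against 48.6% of all genes, and for 31 of 33 without replicate 4, against 49.2%. The median difference went from 0.05 to -0.97, while the median of all tested genes went from 0.02 to 0.01. Thy1- cells were higher than HFSCs for 30 of 33 genes with replicate 4, against 52.6% of all genes, and for 24 without it, against 51.1%, and the median went from 1.22 to 0.22. In that library Lce1c and Sprr1b had 0 reads and Lce1m measured 14.0, while Tchh measured 493, within the range of the other HFSC libraries, and Ivl measured 376, just under their lowest value of 390.2.

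Limma called 1 of the 33 members between Thy1hi cells and HFSCs, where 13.4% of all genes were called, and 0 between Thy1- cells and HFSCs, where 6.08% were. For the latter the unadjusted p was under 0.05 for 1 member, Sprr1b, which was higher in Thy1- cells, as were 12.2% of all genes at that p. In that comparison edgeR called 0 and DESeq2 0. Without HFSC replicate 4 limma called 0 members in both comparisons, where 11.5% and 5.89% of all genes were called. The member called was Sprr2a3, at 1.15, 1.09, 0 and 1.40 in HFSC replicates 1 to 4, a difference of 2.22 (SE 0.71, adjusted p 0.0412, limma), or 2.36 without HFSC replicate 4 (adjusted p 0.0561). Every Thy1hi library was above every HFSC library, as for 1 of the 33 members and 9.46% of all genes. The call was lost without any 1 of the HFSC libraries (adjusted p 0.0561 to 0.114) or without Thy1hi replicates 1 or 3. With all libraries, edgeR and DESeq2 also called Sprr2a3 (adjusted p 0.0323 and 0.0126). The gene entered these tests through the filter described above, so its calls against HFSCs are partly fixed by that filter. Ivl was the clearest gene in the other direction. It measured 390.2, 638, 730.2 and 376 in HFSCs, above every Thy1hi library. Such a gap in this direction was found for 1 of the 33 members and 9.81% of all genes. The difference of Ivl was -1.33 (SE 0.49, adjusted p 0.0812, limma), and its adjusted p without HFSC replicate 4 was 0.082. With DESeq2 or with only these populations in the fit, Ivl passed (adjusted p 0.0387 and 0.0497).

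Lor in HFSC replicates 1 to 4 was 302, 1299, 1887 and 71.5, a range that covers all Thy1hi and all Thy1- libraries, and the difference from Thy1hi cells was -0.62 (95% interval -2.35 to 1.12), or -1.53 without replicate 4 and 0.039 without replicate 3. Lce1c in HFSCs was 41.5, 387, 281 and 0. Thy1- cells exceeded HFSCs by 2.35 with all libraries (adjusted p 0.267, limma) and by 0.51 without replicate 4 (adjusted p 0.765). Sprr1b in HFSCs was 152, 84.7, 62.0 and 0, and the difference from Thy1- cells shrank from 2.43 (adjusted p 0.183, limma) to 0.79 without replicate 4 (adjusted p 0.513). For Lce1m it shrank from 1.69 (adjusted p 0.358) to 0.22 (adjusted p 0.904).

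**Figure D4:**
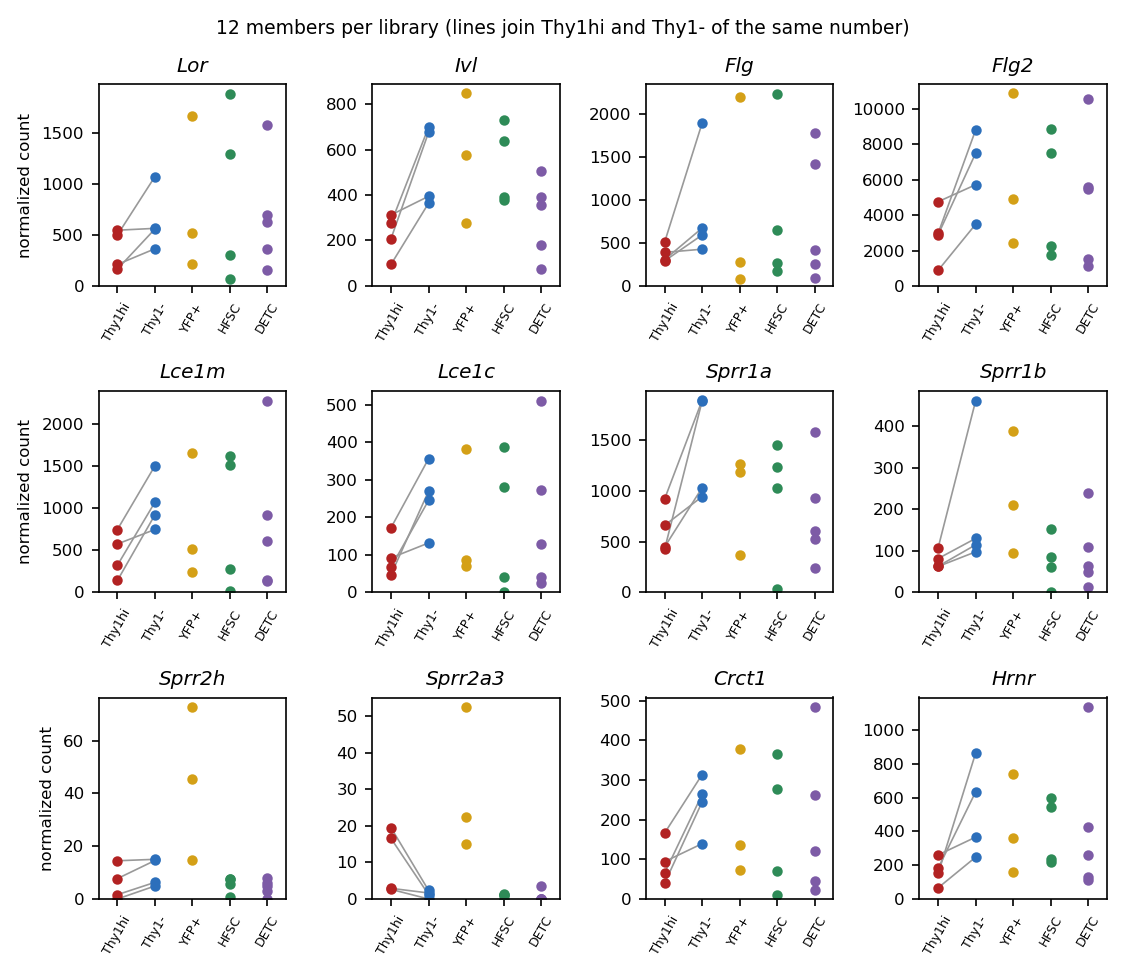
Normalised count of 12 members in each library of the 5 populations (points), on a linear axis from 0; grey lines join the Thy1hi and Thy1- libraries of the same replicate number. The lines rise from Thy1hi to Thy1- in every panel except Sprr2a3, where Thy1hi replicates lie at 2.63 to 19.5 and Thy1- replicates at 0 to 2.37.

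YFP+ cells, recovered through the Thy1 promoter rather than through Thy1 staining alone, were compared with both keratinocyte gates. Against Thy1hi cells limma called 0 of the 33 members, where 0.0116% of all genes passed. At an unadjusted p under 0.05, 3 members were higher (Ivl, Sprr2a3 and Sprr2h), against 4.42% of all genes, and none lower, and edgeR and DESeq2 called 0. Of the 33, 24 had a higher mean in YFP+ cells, against 46.6% of all genes, and without YFP+ replicate 2 this was 14. Ivl in YFP+ replicates 1 to 3 was 576, 848 and 275, a difference of 1.33 from Thy1hi cells (SE 0.53, adjusted p 0.466, limma). Lor was 523, 1672 and 218, a difference of 0.88 with a 95% interval of -1.0 to 2.75. Sprr1b was 389, 211 and 95.1, a difference of 1.36 with an interval of -1.10 to 3.82. For all 3 genes the ranges of YFP+ and Thy1hi libraries overlapped, and the intervals for Lor and Sprr1b include differences in either direction.

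The summed Sprr2 level was highest in the YFP+ libraries, mainly through Sprr2h and Sprr2a3, and no test was made of the sum. The 13 Sprr2 genes summed to 142, 106 and 102 in YFP+ replicates 1 to 3, 45.3, 54.0, 40.6 and 10.7 in Thy1hi replicates 1 to 4 and 42.6, 54.4, 30.0 and 11.5 in Thy1-. Each YFP+ library was above every other library, since HFSCs gave 7.0 to 25.4 and DETCs 2.74 to 21.4. Sprr2h measured 72.8, 45.7 and 14.9 in YFP+ cells, above every Thy1hi library, as for 1 of the 33 members and 4.92% of all genes. Its difference from Thy1hi cells was 3.13 (SE 0.90, adjusted p 0.265, limma) and from Thy1- cells 1.90 (adjusted p 0.365, limma), where YFP+ replicate 3 lay just under the highest Thy1- library. Sprr2a3 measured 14.9, 22.4 and 52.5. Against Thy1- cells it was the 1 member called of 33, through the filter described above, where 0.761% of all genes were called, with a difference of 3.69 (SE 0.76, adjusted p 0.028, limma). All YFP+ libraries were above all Thy1- libraries, as for 1 of the 33 members and 7.76% of all genes. The call was lost without YFP+ replicate 1 or 3, or without Thy1- replicate 1, 2 or 3 (adjusted p 0.0597 to 0.202). The sum of Sprr2a1, Sprr2a2 and Sprr2a3 does not depend on how reads were split among them. It was 18.9, 29.4 and 62.4 in YFP+ cells and at most 3.6 in every HFSC and DETC library. In Thy1hi cells the sum was 2.63 to 21.1, a range that holds YFP+ replicate 1. Against Thy1hi cells Sprr2a3 differed by 1.68 (adjusted p 0.525, limma). Sprr2f, at 14.9, 9.29 and 0.99, and Sprr2g, at 13.0, 10.1 and 8.92, overlapped both keratinocyte gates.

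The 14 Lce1 genes varied widely among the YFP+ libraries. They summed to 791, 3267 and 427 in YFP+ replicates 1 to 3, against 317, 1412, 585 and 987 in Thy1hi and 1777, 3118, 1968 and 1228 in Thy1-. Replicates 1 and 3 lay within the Thy1hi range and below every Thy1- library, and replicate 2 lay above every Thy1- library. Against Thy1- cells 23 of the 33 members had a lower mean, against 55.7% of all genes, and 28 without YFP+ replicate 2, and the median went from -0.72 to -1.51. Whether the Sprr2 and Lce1 families differ in their YFP+ response was not tested.

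**Figure D5:**
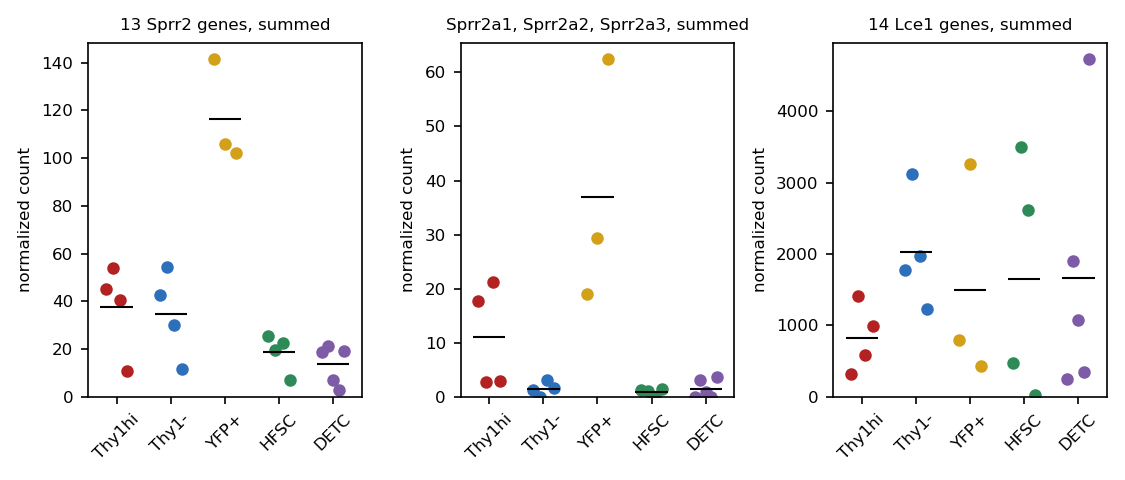
Summed normalised counts per library (points, with the mean as a bar) of the 13 Sprr2 genes, of Sprr2a1 to Sprr2a3 and of the 14 Lce1 genes in the 5 populations. The YFP+ libraries reach 102 to 142 for Sprr2, above all others, while their Lce1 sums of 427 to 3267 overlap those of every other population.

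DETCs are T cells, and envelope genes are not part of their known program. The gate nonetheless held envelope messages at levels that overlapped those of Thy1- keratinocytes for all 33 members, whereas 18.2% of all genes were higher and 12.7% lower in DETCs with no overlap. Limma called 0 of the 33 against Thy1- cells, although 34.1% of all genes were called, and edgeR and DESeq2 also called 0. At an unadjusted p under 0.05 there were 2 lower members, Ivl and Tchh, against 20.2% of all genes, and none higher. Means were lower in DETCs for 32 of 33, against 54.2% of all genes, with a median of -0.93 against -0.09 for all genes. Without DETC library a, 30 were lower with a median of -0.52, and without library b, 32 were lower with a median of -1.30. Ivl measured 180.0, 392, 354, 76.8 and 507 in DETC replicates 1 to 3, a and b, a difference of -1.02 (SE 0.47, adjusted p 0.0985, limma). Tchh measured 170.2, 459, 262, 118 and 522, a difference of -1.05 (SE 0.44, adjusted p 0.0691, limma). Lce1m measured 149, 916, 616, 132 and 2281, and library b was above every other library of the series. In the same comparison 6 of 7 basal keratinocyte markers fell, with a median of -1.64, and 8 of 8 T cell markers rose. Per 1000 counts of basal markers, the 49 genes gave 58.9 to 479 counts in DETCs, 67.5 to 229 in Thy1-, 32.7 to 123 in HFSCs, 17.1 to 145 in YFP+ and 11.6 to 39.6 in Thy1hi. Thy1hi libraries lay below every Thy1- and DETC library on this measure, whose basal markers were themselves higher in Thy1hi cells. Per 1000 counts of 5 suprabasal keratins the order was not kept. On that measure the 49 genes gave 278, 508, 315 and 224 counts in Thy1hi replicates 1 to 4 and 279, 385, 352 and 190.0 in Thy1-, so the groups overlapped, and DETCs gave 99.1 to 753. The source of these messages in the T cell gate was not tested.

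The 16 members that were not tested were Lelp1, Lce3a, Lce3b, Lce3d, Lce3e, Lce3f, Sprr3 and 9 Sprr2 genes. Sprr3, an envelope gene known from oral and esophageal epithelium, stayed at 2.40 or below, and the pseudogene Sprr2c-ps was at 0 in all 20 libraries. Among the untested Sprr2 genes the highest value was 12.9, for Sprr2i in YFP+ replicate 3.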

How the data were processed

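The authors aligned single reads of 100 cycles to mm10 with STAR, counted them on Ensembl genes with featureCounts and normalised the counts with DESeq2; versions of STAR and featureCounts are not given in the sources used here. The authors deposited normalised counts (a signal unit) for 53380 genes in 20 libraries. Multiplied by a recovered size factor, 99.8% to 100% of each library's values were whole reads (within 0.0051), and the reads on genes per library were 7781256 to 12982392. In the table, 1 column, Thy1- replicate 4, was in another row order. It was put back in an order that ignores hyphens, which moved 3212 values, none of a member. Of those rows, 1153 had a mean of at least 10 in the other Thy1- libraries. Over them the correlation of the column with that mean, on the log2 scale, rose from 0.0579 to 0.929.

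Values were tested as log2(value + 1) with limma-trend (limma 3.58.1, R 4.3.3), with 5 population means over all 20 libraries, for the 17204 genes with at least 10 in at least 3 libraries, two-sided, with Benjamini-Hochberg adjustment over all of them and a threshold of 0.05. A fold change on this scale understates that of low genes. Between Thy1hi and Thy1- cells, the 4 pairs of the same number deviated together (r across genes 0.293 to 0.716, other pairs -0.651 to 0.514), so those 8 libraries were also fitted with the replicate number as a block. edgeR 4.0.16 and DESeq2 1.42.0 on the recovered reads, other pseudocounts, filters and scalings, and leaving out each library were alternatives. On simulated counts for Thy1hi against Thy1- cells, run on 17204 genes, the fit recovered 9 of 67 genes changed 2-fold and 58 of 67 changed 4-fold without the block, and 59 of 67 and 67 of 67 with it. Promoters were searched with Python 3.11.15. The genes given values by library in the main comparison were Lor, Ivl, Flg, Flg2, up to 2 tested members of each family with the highest mean over all libraries and the member called without the block between keratinocyte populations. Hrnr, Tchh, Lce1d, Lce1h and Sprr4 were added after their values were seen. Members, lists and tests were chosen with earlier results of these data known.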

Additional observations from a re-analysis of the deposited data

Results flagged for a closer look

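Of 56 sets of values checked for a library far from the others of its population (14 genes or sums in each of 4 populations), 3 had one, and chance gives about 1 in 20. In Thy1- cells, Flg was 1891.75 in replicate 2, against 672.53 for the next library, and Sprr1b was 461.66 in replicate 2, against 130.13 for the next. In DETCs, Sprr2a3 was 3.6 in library b, from 3 reads, and 0 in the other 4 libraries. With those 4 at 0 the check flags any value, so the rate of 1 in 20 does not apply to this set. Thy1- replicate 2 was the highest of its population for 29 of the 33 tested genes.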

How the results depend on the processing

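Between Thy1hi and Thy1- cells the call rests on the pairing: 0 members passed without the replicate block, 19 with it and 24 in edgeR with it, and with the block and without pairs 1, 2, 3 and 4 the count was 9, 5, 4 and 20 (6.61% of all genes with all pairs, 2.49% to 4.08% with a pair left out). Without the block, leaving out a library left the count at 0. Between Thy1hi cells and HFSCs the count of 1 became 0 with a pseudocount of 0.1 or 10, no filter, a mean of at least 50 or quantile normalisation, was 2 with DESeq2 (Ivl and Sprr2a3), and ranged from 0 to 1 with a library left out. Between YFP+ and Thy1- cells the count of 1 became 0 with a pseudocount of 0.1, a mean of at least 50 or DESeq2, which gave Sprr2a3 no adjusted p, and ranged from 0 to 1 with a library left out. With no filter on low values, Sprr2a2 was called in place of Sprr2a3 there, and it gave the count of 1 between YFP+ and Thy1hi cells. Between DETCs and Thy1- cells 1 member passed with equal totals outside Rn45s (Tchh), 2 with quantile normalisation (Ivl and Tchh) and 0 to 2 with a library left out. The cause of these changes was not tested. In all comparisons the labels join libraries by number only, and the pairing of Thy1hi with Thy1- libraries rests on their correlations. In the other comparisons the replicate block gave 21 calls between DETCs and Thy1- cells, where it called 40.9% of all genes. It gave 1 call, of Ivl in place of Sprr2a3, between Thy1hi cells and HFSCs, where it called 7.96%. Same-numbered pairs correlated at -0.22 to 0.14 for DETCs, -0.23 to 0.16 for Thy1hi cells and HFSCs, -0.23 to 0.16 for Thy1- cells and HFSCs, -0.04 to 0.33 for YFP+ and Thy1hi cells and -0.10 to 0.29 for YFP+ and Thy1- cells.

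Of the single genes with a printed fold change, 2 changed sign. Lce3c between Thy1hi and Thy1- cells, at -0.16 as reported, was 0.44 with a pseudocount of 0.1, from -0.77 to 0.45 with a library left out (0.04, 0.45 and 0.07 without Thy1hi replicate 1 and Thy1- replicates 2 and 3), and 0.38 and 0.032 with the block and without pairs 2 and 3. Lor between Thy1hi cells and HFSCs ranged from -1.53 without HFSC replicate 4 to 0.039 without HFSC replicate 3. Equal totals moved the median of all genes between DETCs and Thy1- cells from -0.09 to -0.24. Without the block, 4 libraries a group recovered few 2-fold changes in the simulation.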
